A study of Mus musculus with 22 samples.

Results

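The genes described here are 5 members of the T-box family, Tbx1, Tbx2, Tbx4, Tbx15 and Tbx20, which were chosen by gene symbol as T-box genes other than those usually followed in the mesendoderm and the heart. Each symbol matched 1 row of the tables, so the set is 5 of the 55055 genes that the deposited tables share. The tables hold 12 other T-box genes, among them T (Brachyury), Eomes, Tbx3 and Tbx6. Their levels were read as CPM (the count of a gene scaled by the total count of its library) in mouse embryonic stem (mES) cells, endoderm cultures and gastruloids.

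The study compared wild-type (wt) mES cells with mES cells labelled Hox-/- and titled BADC. Both genotypes were kept as mES cells, with LIF, 3 µM CHIR99021 (a GSK-3 inhibitor) and 1 µM PD0325901 (a MEK inhibitor), and gave 2 libraries each. Both were also taken through an adherent endoderm differentiation, in which 100 ng/ml Activin A and 3 µM CHIR99021 were given at 24 h and again at 72 h and cells were collected at 120 h, with 3 libraries each. Gastruloids, which are stem cell aggregates that form embryo-like axes in culture, were grown under Activin A from both genotypes and under Chiron (a short name of CHIR99021) from wild type alone. They were collected after 96 h or 120 h, and each gastruloid group has 2 libraries. The labels call the endoderm cultures and gastruloids mixed cells, state no gastruloid doses, and give no number of clones, so the effect of a genotype and that of its line cannot be told apart. They also do not say that replicates came from separate cultures, so p-values measure the spread between these libraries, which may be technical.

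T-box proteins are transcription factors that bind DNA through a shared domain, the T-box, and act in many tissues of the embryo as activators or repressors. Tbx1 works in the pharyngeal endoderm, the head mesoderm and the second heart field, Tbx2 is a repressor found in the heart's non-chamber muscle, the limb, the eye and the lung, and Tbx4 marks the hindlimb, the lung mesenchyme and the allantois. Tbx15 acts in the skeleton, skeletal muscle and the skin of the trunk. Tbx20 is needed for heart chamber formation and for hindbrain motor neurons, so that the heart is among the known sites of at least Tbx1, Tbx2 and Tbx20 even though the set was named as lying outside it.

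All 5 genes are annotated on the mm10 build at positions that match GENCODE M21. Tbx1 (ENSMUSG00000009097) lies at chr16:18580979-18590671 on the minus strand, and Tbx20 (ENSMUSG00000031965) lies at chr9:24718138-24774303 on the same strand. Tbx2 (ENSMUSG00000000093, chr11:85832551-85841948) and Tbx4 (ENSMUSG00000000094, chr11:85886422-85916097) are neighbours on the plus strand of 1 chromosome, with 44474 bp between them. Tbx15 (ENSMUSG00000027868) lies at chr3:99240381-99354259 on the plus strand and overlaps Gm43120, a gene with 0 counts in every library. The annotated transcripts of Tbx1, Tbx2, Tbx4 and Tbx15 share no 50-base stretch with transcripts of other genes, and those of Tbx20 share 10 of 11989 such stretches (0.0834%).

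RefSeq start regions were found for 3 of the 5 genes, Tbx1, Tbx4 and Tbx20, and these are printed here. In the endoderm cultures Tbx1 and Tbx4 were higher and Tbx20 was lower in Hox-/-, though for Tbx1 and Tbx20 not in every refit given below. A link between the windows and these differences was not tested. Each window runs from 250 bases before the annotated start to 50 after it, on the GRCm38.p6 build, and is written 5′ to 3′ on the gene's own strand. Capitals mark matches to the E-box CANNTG, searched on both strands. The Tbx4 window is chr11:85896515-85896814 (plus strand, around a start inside the GENCODE gene), the Tbx1 window of the gene's outermost annotated start is chr16:18590622-18590921 (minus strand), and the Tbx20 window is chr9:24774254-24774553 (minus strand).
Tbx4: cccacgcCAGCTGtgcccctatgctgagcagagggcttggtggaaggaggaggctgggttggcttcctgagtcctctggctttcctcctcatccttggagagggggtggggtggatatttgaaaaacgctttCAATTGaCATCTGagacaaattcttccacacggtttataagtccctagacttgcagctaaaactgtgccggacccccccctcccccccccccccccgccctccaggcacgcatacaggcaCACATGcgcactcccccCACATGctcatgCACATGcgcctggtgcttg
Tbx1: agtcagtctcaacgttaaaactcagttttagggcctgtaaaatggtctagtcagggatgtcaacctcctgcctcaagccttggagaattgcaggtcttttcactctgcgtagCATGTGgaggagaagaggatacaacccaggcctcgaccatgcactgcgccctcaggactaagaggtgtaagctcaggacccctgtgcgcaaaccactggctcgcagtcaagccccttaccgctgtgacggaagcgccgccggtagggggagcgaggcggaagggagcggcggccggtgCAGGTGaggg
Tbx20: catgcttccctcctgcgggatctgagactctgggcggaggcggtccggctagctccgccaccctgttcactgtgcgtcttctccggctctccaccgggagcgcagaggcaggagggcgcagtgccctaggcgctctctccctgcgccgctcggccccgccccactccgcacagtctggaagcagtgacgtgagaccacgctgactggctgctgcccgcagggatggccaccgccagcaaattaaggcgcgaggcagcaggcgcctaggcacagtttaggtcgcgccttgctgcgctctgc
The Tbx4 window held 6 E-box matches, the Tbx1 window held 2, and the Tbx20 window and the window of a second Tbx1 start (chr16:18588850-18589149, minus strand) held 0. The motif is common, being present in 72.3% of the 32851 RefSeq windows of this length. Neither GGTGTGA, the core of the T-box binding motif (3.98% of all windows), nor TAATTA, a homeodomain motif (5.29%), was found on either strand in these 4 windows. The windows differed in CpG content, with 26 CpG dinucleotides for Tbx20 and for the second Tbx1 start, 16 for the outermost Tbx1 start and 8 for Tbx4, beside a median of 7 over all windows. Such matches describe letters in a window and not sites of binding.

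Total counts ran from 9108085 to 28819301 per library, and the 120 h gastruloid libraries were the shallower ones, so that time and depth go together in the gastruloids. Replicates of each group were further apart than counting error gives (chi-square per degree of freedom 1.4 to 11.3). The highest value, 11.3, was that of Chiron gastruloids at 96 h, and the next was 5.33 in Hox-/- endoderm. The groups fitted together with Chiron at 96 h stood at 1.4 to 3.93 and share one estimate of the spread with it. As a check of the labels, the 39 Hox genes summed to 30.4 to 35.7 CPM in wild-type and 0.448 to 1.34 CPM in Hox-/- mES cells, to 828 to 877 against 22.5 to 28.6 CPM in endoderm cultures, to 625 to 661 against 102 to 104 CPM in Activin A gastruloids at 96 h, and to 1170 to 1190 against 63.8 to 69.5 CPM in those at 120 h, so the ratio between the genotypes was smallest in the gastruloids at 96 h. Pluripotency markers (6 genes) summed to 5306 to 5515 CPM in the mES libraries, and definitive endoderm markers (8 genes) to 524 to 878 CPM in the endoderm cultures. The 5 genes were low throughout, and no library held more than 136 counts of any of them. Where each library of a group has at most 3 counts, the group is described as at the floor, which is 0.104 to 0.329 CPM depending on the library.

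In mES cells the genes fell into those hardly read and those with a low but steady signal. Tbx1 had 1 count in each of the 4 mES libraries, and Tbx2 had 2 and 2 counts in wild type and 1 and 0 in Hox-/-, so both genes were at the floor in both genotypes. Tbx4 stood at 1.2 and 1.55 CPM in wild type and 1.49 and 1.26 CPM in Hox-/-, and the genotypes overlapped. Tbx20 read 2.79 and 3.26 CPM in wild type and 1.72 and 2.35 CPM in Hox-/-. The Tbx20 libraries of the genotypes did not overlap, but the difference did not pass the test (log2 fold change -0.58, SE 0.27, adjusted p = 0.122, edgeR's quasi-likelihood test with Benjamini-Hochberg adjustment over all genes tested). Of the 2 genes that passed the filter on low counts in this table, 0 were called, where called means an adjusted p under 0.05 and 23.2% of all genes tested were called. By the same edgeR test before adjustment, Tbx20 alone of the 2 was past 0.05, and DESeq2 called 0. Tbx15, which the filter left out, had 11 and 11 counts in wild type and 3 and 2 in Hox-/-, at least 3.33-fold lower, and with no filter it was called lower (log2 fold change -1.96, adjusted p = 0.0286).

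Most of the set read higher in endoderm cultures than in mES cells, a comparison in which most genes of the table were called. In wild type, Tbx15 rose from 0.793 ± 0.0881 CPM (SD, n = 2) to 4.24 ± 0.811 CPM (SD, n = 3), with 4.95, 4.42 and 3.36 CPM in the 3 endoderm libraries (log2 fold change 2.29, SE 0.275, adjusted p = 2.13e-07). Tbx1 rose at least 7.08-fold and Tbx2 at least 9.51-fold over the floor of the mES libraries. Tbx20 rose from 3.03 ± 0.336 to 4.84 ± 0.328 CPM (log2 fold change 0.57, adjusted p = 0.0104), and Tbx4 stood at 1.37 ± 0.254 and 2.07 ± 0.43 CPM (0.49, adjusted p = 0.0997), so 4 of 5 genes were called higher in wild type, beside 79.9% of all genes tested called in either direction (41.6% higher and 38.3% lower). In Hox-/- all 5 were called higher, beside 80.6% of all genes (42.7% higher and 37.9% lower), with Tbx1 at least 12.2-fold, Tbx2 at least 17.5-fold and Tbx15 at least 24.3-fold over the floor, and with log2 fold changes of 2.04 for Tbx4 (SE 0.229, adjusted p = 8.41e-08) and 0.74 for Tbx20 (SE 0.218, adjusted p = 0.00427). The mES and endoderm libraries come from separately deposited tables, and scaling by total counts alone moved the median over all genes from 0.07 to 0.18 in wild type and from 0.10 to 0.18 in Hox-/-. Without 1 library, mES replicate 1 of the genotype in question, the Tbx20 call was lost in wild type (0.47) and in Hox-/- (0.51), and without wild-type endoderm replicate 1 Tbx4 was also called (0.63), as it was over all libraries with total counts alone (0.61). Over all libraries DESeq2 did not call Tbx20 in wild type (0.55).

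Within the endoderm cultures, Tbx4, Tbx2, Tbx1 and Tbx15 were higher and Tbx20 was lower in Hox-/- than in wild type. Tbx4 read 1.62, 2.11 and 2.48 CPM in the wild-type libraries and 6.36, 5.84 and 5.86 CPM in the Hox-/- libraries. Every Hox-/- library stood above every wild-type library, and the mean was 2.91-fold higher (log2 fold change 1.54, SE 0.179, adjusted p = 8.46e-06), a call kept in all 14 alternatives. Tbx4, the hindlimb and allantois gene, thus had its highest level of all 10 groups in Hox-/- endoderm, at 6.02 ± 0.296 CPM (SD, n = 3), and stood below 1 CPM on average in all 6 gastruloid groups.

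Tbx2 read 1.38, 1.65 and 3.14 CPM in wild-type endoderm and 4.49, 4.18 and 3.84 CPM in Hox-/-. The groups did not overlap, wild-type replicate 3 lay nearest to the Hox-/- libraries, and the difference was called (log2 fold change 1.02, SE 0.251, adjusted p = 0.0041), though not by limma on log2(FPKM + 0.1) (0.96, adjusted p = 0.0588). Tbx1 read 1.14, 1.78 and 1.68 CPM in wild type and 3.58, 1.85 and 3.28 CPM in Hox-/-, with Hox-/- replicate 2 just above the highest wild-type library. Its difference was called as well (0.92, SE 0.282, adjusted p = 0.0159). The Tbx1 call was lost without wild-type replicate 1 (0.74), without Hox-/- replicate 1 (0.73) and without Hox-/- replicate 3 (0.82).

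Tbx15, which acts in the skeleton and muscle, read 4.95, 4.42 and 3.36 CPM in wild-type endoderm and 6.02, 5.29 and 6.05 CPM in Hox-/-, without overlap (log2 fold change 0.46, SE 0.161, adjusted p = 0.0298). Tbx20 went the other way, with 4.70, 5.21 and 4.6 CPM in wild type and 3.81, 3.26 and 3.65 CPM in Hox-/-, again without overlap (-0.43, SE 0.156, adjusted p = 0.036). These 2 differences lie close to the threshold. The Tbx15 call was lost without wild-type replicate 2 (0.49) or 3 (0.32) and without Hox-/- replicate 1 (0.43) or 3 (0.43), and the Tbx20 call without wild-type replicate 1 (-0.46) or 2 (-0.38) and without Hox-/- replicate 2 (-0.36) or 3 (-0.45). DESeq2 called neither gene, and limma on FPKM did not call Tbx15 (0.26 and 0.43).

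All 5 of the 5 genes were thus called between the genotypes in endoderm, 4 of them higher and 1 lower, beside 46.2% of all 14975 genes tested, 23.1% higher and 23.1% lower. In these bulk cultures, fewer cells of a type and less RNA per cell cannot be told apart. Of the 12 other T-box genes 6 were tested. T was higher in Hox-/- endoderm, and Eomes, Tbx3, Tbx5 and Tbx6 were lower, with a median log2 fold change of -0.97 beside 0.00 over all genes. T, a mesoderm regulator, stood at 174 ± 9.07 and 236 ± 7.3 CPM (log2 fold change 0.45, adjusted p = 6.24e-06), and Eomes, which specifies mesendoderm, at 162 ± 10.1 and 78.8 ± 4.08 CPM (-1.03, adjusted p = 6.4e-09). Definitive endoderm markers summed to 867 to 878 CPM in wild type and 524 to 576 CPM in Hox-/-, pluripotency markers to 720 to 844 and 209 to 228 CPM, and cardiomyocyte markers (6 genes, of which Myl7 was at the floor in Hox-/-) to 63.7 to 85.7 and 115 to 126 CPM. The higher cardiomyocyte sum came from Actc1 (66.1 ± 9.46 against 112 ± 5.5 CPM), while Tnnt2 (5.22 ± 1.08 against 2.65 ± 0.114 CPM) and Myl7 were called lower in Hox-/-. Most of the definitive endoderm sum came from Krt8, Krt18 and Cldn6. Their means were 295, 241 and 152 CPM in wild type and 247, 148 and 63.2 CPM in Hox-/-. Sox17 (24.5 against 4.89 CPM), Foxa2 (18.6 against 4.18 CPM) and Cer1 (1.11 against 0.221 CPM) were lower by a larger factor. The part of these marker differences in the T-box values was not tested.

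The lists of genes around each member moved in both directions in endoderm, where 23.1% of all genes tested were called higher and 23.1% lower. Of the pharyngeal and second heart field genes around Tbx1 13 of 16 were tested, of which 2 were higher and 9 lower in Hox-/- (median log2 fold change -0.69), while Tbx1 itself was higher. Of the 14 BMP pathway genes 7 were higher and 2 lower (0.26), and of the lateral plate, limb and allantois genes around Tbx4 10 of 11 were tested, with 5 higher and 2 lower (0.20). Of the cardiac genes around Tbx20 10 of 12 were tested, with 1 higher and 4 lower (-0.20). The genes described as repressed by Tbx2 or Tbx3 (5 of 7 tested) held 3 higher and 2 lower (0.21), the paraxial and skeletal mesenchyme genes around Tbx15 (8 of 12 tested) 2 higher and 3 lower (-0.07), and the retinoic acid genes (7 of 9 tested) 2 higher and 2 lower (0.13). These lists, like the members, were chosen with earlier results of these data known, so their counts are no independent support.

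**Figure D1:**
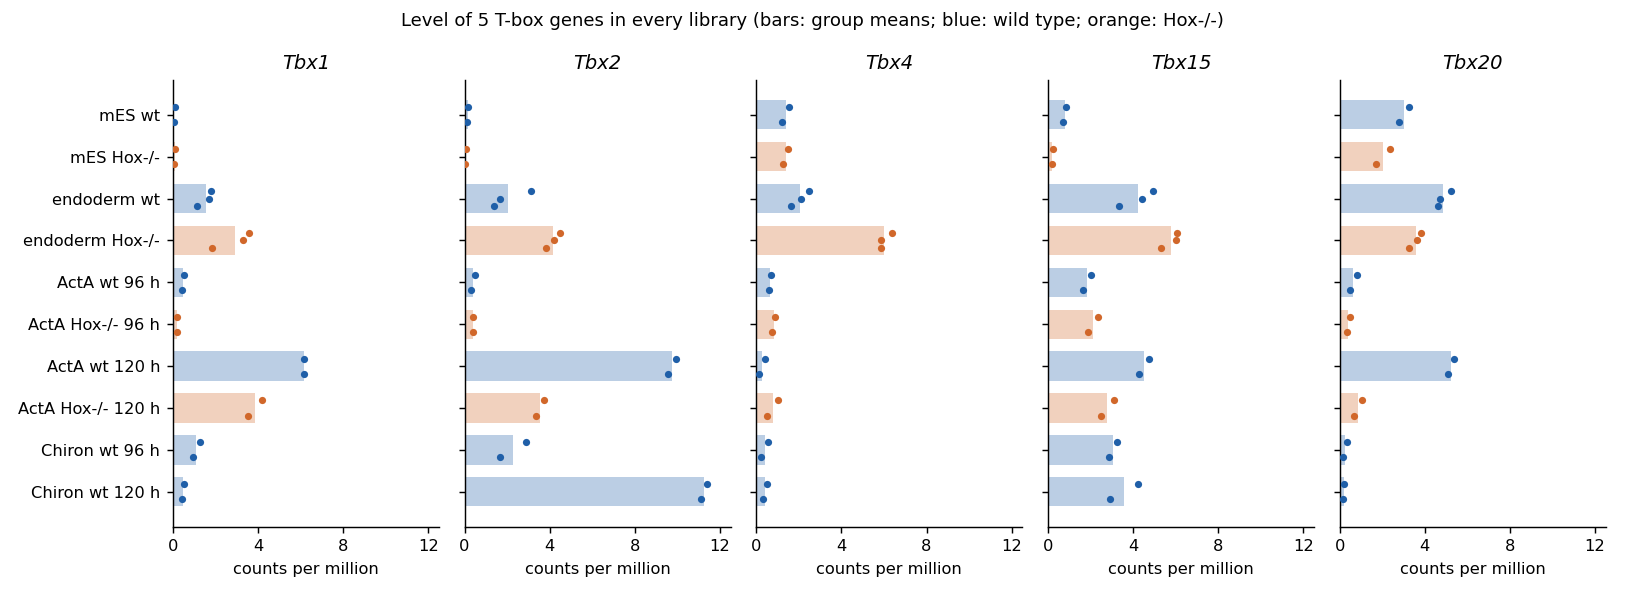
CPM (x axis, from 0) of each of the 5 genes in every library, with 1 row per group; points are libraries, bars are group means, blue is wild type and orange is Hox-/-. Tbx4 peaks in Hox-/- endoderm at 6.02 CPM, Tbx2 in the 120 h wild-type gastruloids at 9.75 and 11.3 CPM, and Tbx1 and Tbx20 in wild-type Activin A gastruloids at 120 h at 6.15 and 5.23 CPM.

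Across the 10 groups the 5 genes peaked in different places. Tbx1 was highest in wild-type Activin A gastruloids at 120 h (6.15 ± 0.00916 CPM, from 57 and 56 counts). Counting error alone gives this level an exact Poisson 95% interval of 5.07 to 7.4 CPM, wider than the SD. Next came Hox-/- Activin A gastruloids at 120 h (3.87 ± 0.477 CPM) and Hox-/- endoderm (2.90 ± 0.926 CPM), and the libraries of these 2 groups overlapped. Below them came wild-type endoderm (1.53 CPM) and Chiron gastruloids at 96 h (1.10 CPM), which overlapped each other, then wild-type Activin A at 96 h (0.48 CPM) and Chiron at 120 h (0.464 CPM), which also overlapped, then Hox-/- Activin A at 96 h (0.194 CPM) and the mES groups. Tbx2 was highest in Chiron gastruloids at 120 h (11.3 ± 0.188 CPM), then in wild-type Activin A gastruloids at 120 h (9.75 ± 0.278 CPM), Hox-/- endoderm (4.17 ± 0.323 CPM) and Hox-/- Activin A at 120 h (3.54 ± 0.24 CPM), without overlap among these 4. Chiron at 96 h (2.27 CPM) and wild-type endoderm (2.05 CPM) overlapped, as did the wild-type and Hox-/- Activin A gastruloids at 96 h (0.407 and 0.388 CPM).

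Tbx4 followed another order, with Hox-/- endoderm, wild-type endoderm and the mES groups on top and every gastruloid group below them, and most neighbouring gastruloid groups overlapped. Outside mES cells, Tbx15 varied least of the 5. Its group means there ran from 1.84 CPM (wild-type Activin A at 96 h) to 5.79 CPM (Hox-/- endoderm), and the 4 groups from wild-type Activin A at 120 h down to Chiron at 96 h overlapped each with the next. Tbx20 was highest in wild-type Activin A gastruloids at 120 h (5.23 ± 0.212 CPM) and wild-type endoderm (4.84 ± 0.328 CPM), which overlapped, and was lowest in Chiron gastruloids, at 0.24 CPM at 96 h and at the floor with 2 counts per library at 120 h.

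Levels of different genes can be compared only per length, for which the authors' FPKM (fragments scaled by transcript length and library depth) were used. In wild-type Activin A gastruloids at 120 h the order was Tbx2 (2.21 ± 0.0572 FPKM, SD, n = 2), Tbx1 (1.95 ± 0.0269), Tbx15 (1.13 ± 0.0868), Tbx20 (0.61 ± 0.197) and Tbx4 (0.0825 ± 0.0696). In Hox-/- endoderm it was Tbx4 (1.76 ± 0.0963 FPKM, SD, n = 3), Tbx15 (1.58 ± 0.119), Tbx1 (1.29 ± 0.314), Tbx2 (1.09 ± 0.0672) and Tbx20 (0.427 ± 0.138). The FPKM of Tbx20 does not track its counts. By FPKM its highest group mean was in wild-type mES cells (0.943 ± 0.642), above wild-type Activin A gastruloids at 120 h (0.61 ± 0.197). In wild-type mES cells 42 counts in each library came with 1.40 and 0.489 FPKM, and in Hox-/- Activin A gastruloids at 96 h 7 counts in each library came with 0.0328 and 0.425 FPKM, so counts are used for Tbx20 wherever groups are compared.

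Wild-type gastruloids under Activin A gained Tbx1, Tbx2, Tbx15 and Tbx20 between 96 h and 120 h. Tbx2 went from 0.311 and 0.504 CPM to 9.94 and 9.55 CPM, a 23.9-fold higher mean (log2 fold change 4.46, SE 0.263, adjusted p = 1.18e-20). Tbx1 went from 0.533 and 0.426 to 6.16 and 6.15 CPM (3.59, SE 0.288, adjusted p = 1e-15), and Tbx20 from 0.80 and 0.465 to 5.08 and 5.38 CPM (2.98, SE 0.296, adjusted p = 1.18e-12). In each of these genes the 2 libraries at 120 h stood together and far above the 96 h libraries. Tbx15 rose from 1.84 ± 0.294 to 4.52 ± 0.335 CPM (1.23, SE 0.241, adjusted p = 1.25e-05). Tbx4 was read 16 and 16 times at 96 h and 4 and 1 times at 120 h (0.271 CPM, with an exact Poisson 95% interval of 0.0884 to 0.636 CPM that covers counting error only) and did not pass the test (-1.33, adjusted p = 0.0581), although it did without replicate 1 of 120 h (-2.59). In all, 4 of 5 genes were called higher, beside 74.9% of all genes called in either direction (37.2% higher and 37.8% lower).

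Hox-/- gastruloids gained Tbx1 and Tbx2 over the same interval, while Tbx15 and Tbx20 did not pass the test there. Tbx1 went from 0.187 and 0.201 CPM to 3.53 and 4.21 CPM (log2 fold change 4.25, SE 0.399, adjusted p = 1.88e-13), and Tbx2 from 0.374 and 0.401 to 3.71 and 3.37 CPM (3.16, SE 0.351, adjusted p = 3.42e-11). Tbx20 stood at 0.327 and 0.468 CPM at 96 h and at 1.03 and 0.655 CPM at 120 h (1.11, SE 0.518, adjusted p = 0.0512), and passed without Hox-/- replicate 2 of 120 h (1.40) and with total counts alone (1.13). Tbx15 stood at 2.11 ± 0.329 and 2.79 ± 0.415 CPM (0.36, adjusted p = 0.214). Thus 2 of 5 genes were called higher, beside 72.4% of all genes (34.9% higher and 37.6% lower).

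At 96 h none of the 5 genes differed between the genotypes by the test, and at 120 h Tbx1, Tbx2 and Tbx20 were lower in Hox-/-. At 96 h 0 of 5 genes were called by edgeR, beside 38.9% of all 16831 genes (22.2% higher and 16.7% lower), and DESeq2 called 0. Before adjustment 1 of 5 was past 0.05 by edgeR, Tbx1 (log2 fold change -1.22, SE 0.57, adjusted p = 0.0849), at 0.533 and 0.426 CPM in wild type against 0.187 and 0.201 CPM in Hox-/-. These genes were low at 96 h, with 3 to 19 counts per library for Tbx1, Tbx2, Tbx4 and Tbx20, which limits what could be detected. Tbx15 had 46 and 42 counts in wild type and 50 and 28 in Hox-/- and overlapped between the genotypes.

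Tbx20 showed the largest genotype difference of the set. At 120 h it read 5.08 and 5.38 CPM in wild type and 1.03 and 0.655 CPM in Hox-/-. The mean was 6.19-fold lower in Hox-/- (log2 fold change -2.50, SE 0.335, adjusted p = 1.26e-08), and the call held in each of the 12 alternatives in which it was tested, with log2 fold changes from -2.87 to -2.21. Tbx2 read 9.94 and 9.55 CPM in wild type and 3.71 and 3.37 CPM in Hox-/-, 2.76-fold lower (-1.35, SE 0.205, adjusted p = 2.3e-07). Tbx1 read 6.16 and 6.15 CPM in wild type and 3.53 and 4.21 CPM in Hox-/- (-0.56, SE 0.225, adjusted p = 0.0337). The Tbx1 call lay near the threshold and was lost without wild-type replicate 1 (-0.55) or 2 (-0.57) and without Hox-/- replicate 1 (-0.43), and with DESeq2 (-0.55), no filter (-0.53) or limma on FPKM (-0.26 and -0.40).

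The other 2 genes did not pass the test at 120 h. Tbx15 read 4.76 and 4.28 CPM in wild type and 2.50 and 3.09 CPM in Hox-/-, without overlap (log2 fold change -0.59, SE 0.257, adjusted p = 0.0521). It was called lower in 6 of 15 alternatives, among them scaling by total counts alone (-0.70). Tbx4 read 0.432 and 0.11 CPM in wild type and 0.517 and 1.03 CPM in Hox-/- (1.57, SE 0.697, adjusted p = 0.0566) and was called higher without wild-type replicate 1 (2.83) or without Hox-/- replicate 1 (2.00), from 17 counts or fewer per group. In all, 3 of 5 genes were called, all lower, beside 50.4% of all genes (24.9% higher and 25.5% lower). Scaling by total counts alone moved the median over all genes from -0.02 to -0.13 at 120 h and the share of calls that were higher from 49.4% to 34.6%, and at 96 h that share from 57% to 42.5%, while Tbx1 (-0.67), Tbx2 (-1.46) and Tbx20 (-2.61) were called lower under it too.

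**Figure D2:**
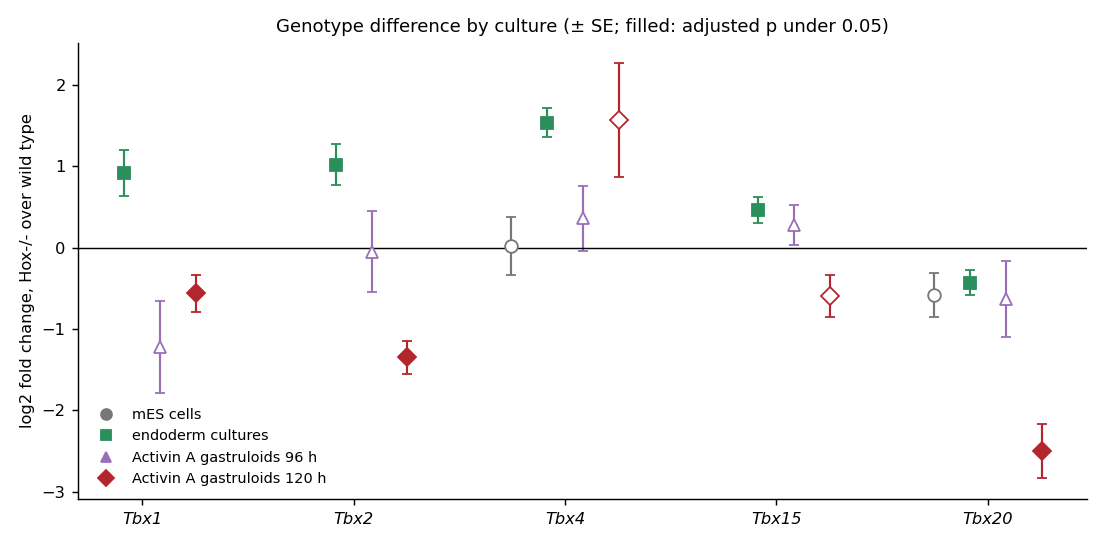
Log2 fold change of Hox-/- over wild type (y axis, ± SE) for each gene (x axis) in mES cells, endoderm cultures and Activin A gastruloids at 96 h and 120 h; filled symbols have an adjusted p under 0.05, open symbols do not, and untested values are left out. Tbx1 and Tbx2 lie above 0 in endoderm (0.92 and 1.02) and below 0 in gastruloids at 120 h (-0.56 and -1.35).

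Markers of several cell types also differed between these gastruloids at 120 h. Definitive endoderm markers summed to 957 CPM in both wild-type libraries and to 178 to 185 CPM in Hox-/-, presomitic and somitic markers (6 genes) to 402 to 409 and 811 to 821 CPM, and neural markers (5 genes, Olig2 at the floor in Hox-/-) to 91.2 to 93.9 and 23 to 23.1 CPM. Cardiomyocyte markers (6 genes, Myh6 at the floor in Hox-/-) summed to 14.5 to 18.2 and 19.8 to 22.4 CPM, most of it from Actc1, with 9.47 and 14.8 CPM on average. Endothelial markers (5 genes) summed to 31.2 to 38.8 and 57.6 to 57.8 CPM. Their part in the lower Tbx1, Tbx2 and Tbx20 values was not tested.

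Genes known to work with Tbx20 in the heart were mostly lower in Hox-/- gastruloids at 120 h. Of 12 cardiac genes 11 were tested, 7 were lower (Gata4, Hand2, Mef2c, Myh6, Myl7, Nkx2-5 and Smyd1) and 2 were higher (Actc1 and Hand1), with a median log2 fold change of -1.61 beside -0.02 over all genes. Of all genes tested in this comparison, 25.5% were called lower and 24.9% higher. Nkx2-5, a cardiac homeodomain factor, stood at 2.24 ± 0.41 CPM in wild type against 0.266 ± 0.112 CPM in Hox-/- (-2.91, adjusted p = 1.25e-05). Gata4, a zinc finger factor of heart and endoderm, stood at 11.5 ± 0.104 and 5.82 ± 0.553 CPM (-0.87, adjusted p = 2.04e-05). Myh6, a heart muscle myosin gene, stood at 1.42 CPM in wild type and was at the floor in Hox-/-.

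Genes around the other members moved in both directions at 120 h, where 24.9% of all genes tested were called higher and 25.5% lower. Of 16 genes of the pharyngeal and second heart field programme around Tbx1 15 were tested, 8 were lower, among them Isl1, Foxa2, Shh and Chrd, and 6 were higher, among them Foxc1 and Foxc2, with a median of -0.26. Foxa2, an endoderm and notochord factor, stood at 63.1 ± 2.62 CPM in wild type against 1.93 ± 0.0794 CPM in Hox-/- (log2 fold change -4.92, adjusted p = 5.55e-33), and Foxc2, a mesoderm factor, at 98.7 ± 5.46 and 215 ± 4.55 CPM (1.24, adjusted p = 9.21e-27). BMP signalling acts upstream of Tbx2 and Tbx20 in the heart. Of 14 BMP pathway genes, all tested, 6 were lower (Bmp2, Bmp7, Id1, Id2, Id3 and Msx1) and 4 were higher (Bmpr1a, Msx2, Smad5 and Smad7), with a median of -0.29. Id2, 1 of the lower genes, stood at 135 ± 5.58 CPM in wild type against 19.6 ± 1.51 CPM in Hox-/- (-2.68, adjusted p = 8.19e-34). The part of BMP signalling in the lower Tbx2 and Tbx20 values was not tested.

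Of 7 genes described as repressed by Tbx2 or Tbx3, 5 were tested, of which 2 were higher, Cdkn1a among them, and 2 were lower, Cdkn2a and Ndrg1, with a median of 0.06. These counts and the following ones at 120 h stand beside 24.9% of all genes called higher and 25.5% lower. Cdkn1a, a cell cycle inhibitor, stood at 90.2 ± 1.76 CPM in wild type against 152 ± 2.41 CPM in Hox-/- (log2 fold change 0.86, adjusted p = 4.9e-20). In endoderm cultures, where Tbx2 was higher in Hox-/-, Cdkn1a was higher as well, at 304 ± 25.1 against 625 ± 40.5 CPM (log2 fold change 1.05). The part of Tbx2 in either Cdkn1a difference was not tested. Around Tbx4, 7 of 11 lateral plate, limb and allantois genes were higher (Foxf1, Hlx, Pitx1, Sall4, Twist1, Wnt2 and Wnt5a) and 3 were lower, Barx1 and Prrx1 among them, with a median of 0.98. Around Tbx15, 5 of 12 paraxial and skeletal mesenchyme genes were higher and 4 were lower, with a median of 0.21. Of 9 retinoic acid genes 8 were tested, 3 were higher, including Aldh1a2, the enzyme that makes retinoic acid (122 ± 10.4 to 273 ± 0.338 CPM), and 4 were lower, including Cyp26a1, which degrades it (135 ± 1.44 to 35.3 ± 2.16 CPM), with a median of -0.31. At 96 h the cardiac list held 1 higher and 3 lower genes of 11 tested, the BMP list 5 and 5 of 14, and the pharyngeal list 3 and 7 of 15. Over all genes tested at 96 h, 22.2% were called higher and 16.7% lower.

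**Figure D3:**
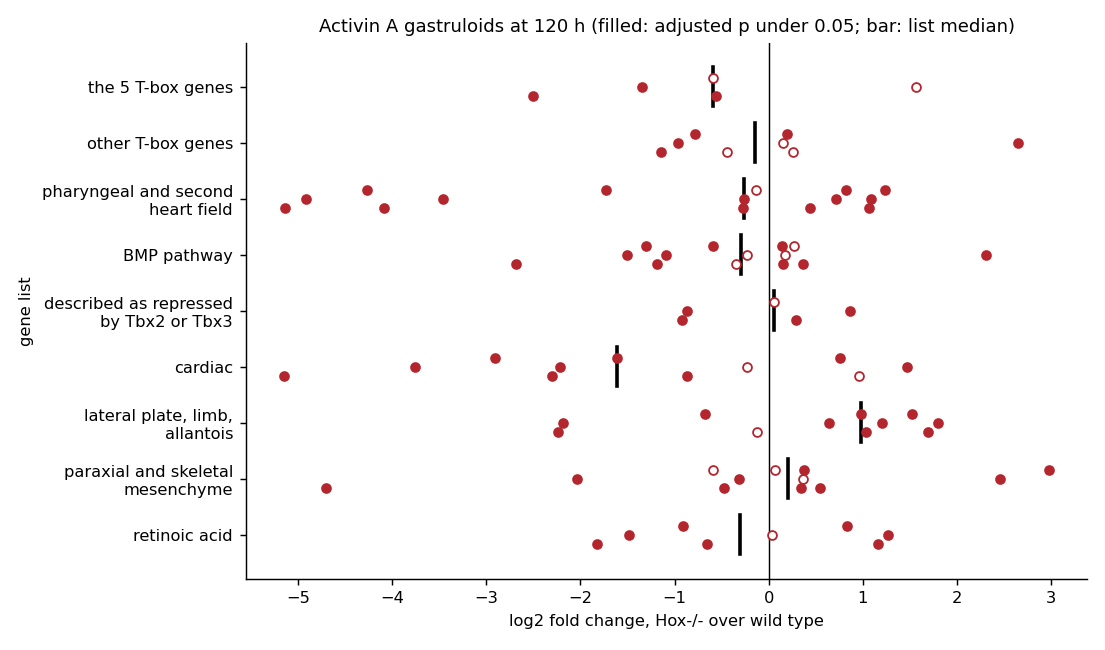
Log2 fold change of Hox-/- over wild type in Activin A gastruloids at 120 h (x axis) for the 5 T-box genes and each gene list (rows); 1 point per gene tested, filled where the adjusted p is under 0.05, with a bar at the list median. The cardiac row has its median at -1.61 and the lateral plate row at 0.98, and most rows hold genes on both sides of 0.

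Among the other T-box genes, 8 of 12 were tested at 120 h, of which Tbx6 and Mga were higher and Eomes, T and Tbx18 were lower in Hox-/- gastruloids, with a median log2 fold change of -0.15. Beside them, 24.9% of all genes tested were called higher and 25.5% lower. Tbx6, a presomitic mesoderm factor, stood at 17.8 ± 0.959 CPM in wild type against 104 ± 2.1 CPM in Hox-/- (2.65, adjusted p = 5.43e-31). Tbx18, found in somites, epicardium and the ureter, stood at 19.2 ± 0.211 and 8.09 ± 0.466 CPM (-1.14, adjusted p = 6.35e-09). Tbx3, the closest relative of Tbx2, stood at 6.59 ± 0.766 and 4.47 ± 0.631 CPM and did not pass the test (-0.44, adjusted p = 0.0791). Set against each other per length, in their highest groups, T reached 1177 FPKM, Tbx6 204 FPKM, Tbx3 50.3 FPKM and Eomes 44.9 FPKM, Tbx18 reached 3.6 FPKM, and Tbx5 0.476, Tbr1 0.26 and Tbx21 0.406 FPKM. The highest group means of the 5 genes, 2.58 FPKM for Tbx2 and 1.95 FPKM for Tbx1 among them, thus lay between these.

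**Figure D4:**
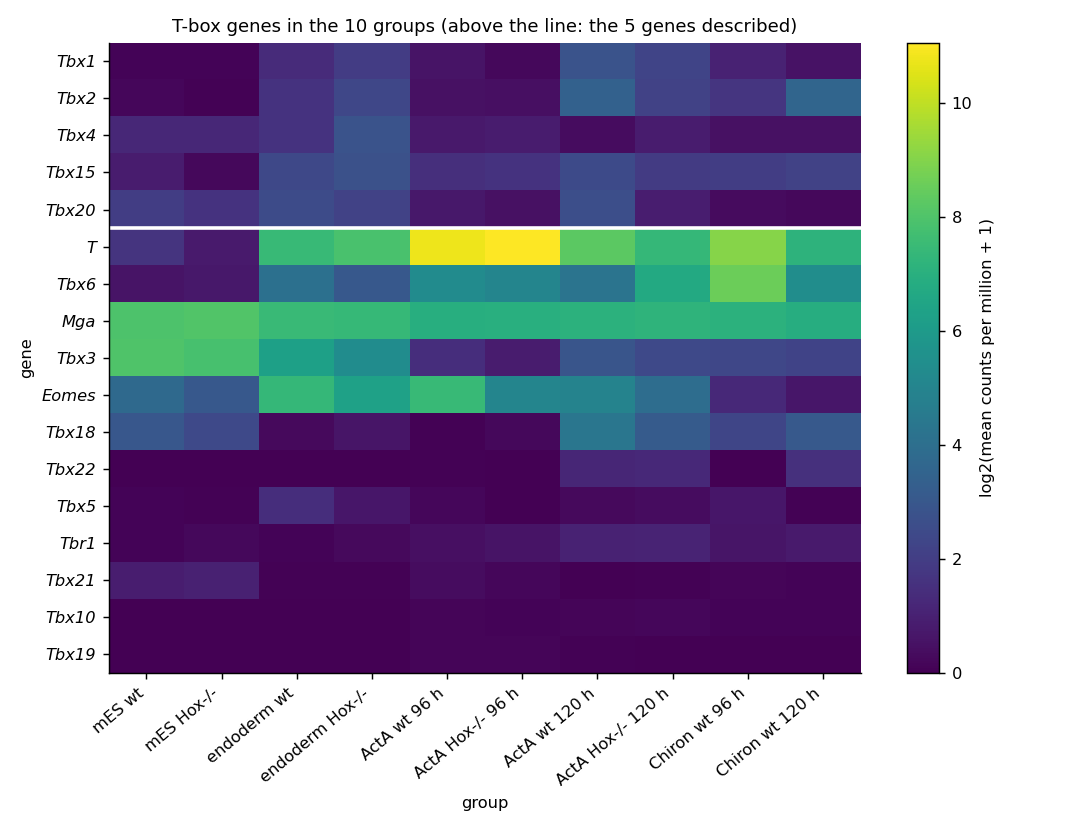
Heat map of log2(mean CPM + 1) for the 17 T-box genes (rows) in the 10 groups (columns), with the 5 genes described here above the white line. Each row is to be read across groups: T is brightest in Hox-/- Activin A gastruloids at 96 h (2129 CPM), Tbx3 in mES cells (256 CPM in wild type), and Tbx2 in Chiron gastruloids at 120 h (11.3 CPM).

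The change of the genotype difference over time was tested directly in Activin A gastruloids. It was called for Tbx20 (log2 interaction -1.87, SE 0.635, adjusted p = 0.016) and for Tbx15 (-0.87, SE 0.353, adjusted p = 0.0451), 2 of 5 genes, beside 38.9% of all genes (18.7% higher and 20.2% lower). Both genes therefore gained more between 96 h and 120 h in wild type than in Hox-/-. For Tbx2 the interaction was -1.30 (SE 0.563, adjusted p = 0.0624) and was called without wild-type replicate 2 of 96 h (-1.70), with counts thinned to the smallest library (-2.03) and with limma on log2(FPKM + 1) (-0.81). For Tbx1 it was 0.66 (adjusted p = 0.426) and for Tbx4 1.2 (adjusted p = 0.253). The Tbx20 call was lost without wild-type replicate 2 of 96 h (-1.51), Hox-/- replicate 2 of 96 h (-1.64) or Hox-/- replicate 2 of 120 h (-1.58). The Tbx15 call was lost without wild-type replicate 2 of 96 h (-0.70), wild-type replicate 1 (-0.78) or 2 (-0.94) of 120 h, Hox-/- replicate 1 of 96 h (-0.68), or Hox-/- replicate 1 (-0.72) or 2 (-1.02) of 120 h, and DESeq2 called neither gene. Tbx15 was also not called with no filter (-0.79), one fit over the 12 gastruloid libraries (-0.86), thinned counts (-0.51) or limma on FPKM (-0.42 and -0.85).

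The genotype differences in gastruloids at 120 h and in endoderm cultures were also set against each other, a comparison added after their values were seen. The difference was lower in gastruloids than in endoderm for Tbx2 (log2 interaction -2.38, SE 0.324, adjusted p = 2.96e-06), Tbx20 (-2.08, SE 0.361, adjusted p = 7.24e-05), Tbx1 (-1.48, SE 0.359, adjusted p = 0.00229) and Tbx15 (-1.06, SE 0.298, adjusted p = 0.00771), so 4 of 5 genes were called, beside 32.2% of all 17622 genes (15.2% higher and 16.9% lower). Tbx1 and Tbx2 were called in opposite directions in the 2 cultures, higher in Hox-/- endoderm and lower in Hox-/- gastruloids. The Tbx1 call was lost in 3 of 14 alternatives in endoderm and in 7 of 14 in gastruloids. For Tbx2 these losses were 1 of 14 and 0 of 14. Tbx20 was lower in Hox-/- in both and by more in gastruloids, with its endoderm call lost in 6 of 12 alternatives. For Tbx4 the interaction was 0.02 (SE 0.33, adjusted p = 0.979), with a sign that changed with the library left out. The Tbx15 call was lost without Hox-/- gastruloid replicate 1 of 120 h (-0.91). Scaling by total counts alone moved the median over all genes from -0.06 to -0.16 and the share of calls that were higher from 47.4% to 33.3%. Both cultures were collected at 120 h but come from separate tables, and each genotype difference was taken within its own culture.

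In wild type, the gastruloid treatment set Tbx1 and Tbx20 apart at 120 h and left Tbx2 with no difference by the test. Tbx1 read 0.503 and 0.424 CPM under Chiron at 120 h and 6.16 and 6.15 CPM under Activin A (log2 fold change 3.64, SE 0.356, adjusted p = 1.4e-08). Tbx20 had 2 and 2 counts under Chiron and 47 and 49 under Activin A, at least 18.4-fold higher (adjusted p = 2.7e-08). Tbx2 read 11.4 and 11.1 CPM under Chiron and 9.94 and 9.55 CPM under Activin A (-0.26, SE 0.184, adjusted p = 0.275), so that Tbx2 reached its 2 highest group means under the 2 treatments at this time. Tbx15 (0.31, adjusted p = 0.35) and Tbx4 (-0.66, adjusted p = 0.553) did not pass either. Here 2 of 5 genes were called, both higher, beside 41.9% of all 17305 genes (20.3% higher and 21.6% lower).

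At 96 h, Tbx1, Tbx2 and Tbx15 were lower and Tbx20 was higher under Activin A than under Chiron. Tbx2 read 2.87 and 1.67 CPM under Chiron and 0.311 and 0.504 CPM under Activin A (log2 fold change -2.44, SE 0.336, adjusted p = 1.17e-06). Tbx1 read 0.925 and 1.28 CPM under Chiron and 0.533 and 0.426 CPM under Activin A (-1.29, SE 0.343, adjusted p = 0.00229), a call lost without Chiron replicate 2 (-0.98). Tbx15 stood at 3.05 ± 0.294 and 1.84 ± 0.294 CPM (-0.79, SE 0.217, adjusted p = 0.00299), a call lost without Activin A replicate 2 (-0.60). Tbx20, with 7 and 4 counts under Chiron and 18 and 12 under Activin A, was called higher (1.39, adjusted p = 0.0186), but not without Chiron replicate 2 (0.82) or Activin A replicate 1 (1.01), with DESeq2 (1.42) or with counts thinned to the smallest library (0.92). Tbx4 had 5 and 16 counts under Chiron and 16 and 16 under Activin A and was not called. Both limma fits on FPKM lost the calls of Tbx1 (-0.25 and -0.81) and Tbx15 (-0.32 and -0.72). In all, 4 of 5 genes were called, beside 61.6% of all genes (31.3% higher and 30.2% lower).

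Under Chiron, Tbx2 rose between 96 h and 120 h and Tbx1 fell. Tbx2 went from 2.87 and 1.67 to 11.4 and 11.1 CPM (log2 fold change 2.26, SE 0.2, adjusted p = 1.13e-09). Tbx1 went from 0.925 and 1.28 to 0.503 and 0.424 CPM (-1.36, SE 0.439, adjusted p = 0.00993), a call lost without Chiron replicate 2 of 96 h (-1.05) and without replicate 1 (-1.52) or 2 (-1.26) of 120 h, and with limma on FPKM (-0.21 and -0.66). Tbx4, Tbx15 and Tbx20 did not pass, so 2 of 5 genes were called, beside 61.7% of all genes (28.5% higher and 33.2% lower). The difference between the treatments in this change over time was called for Tbx1 (log2 interaction 4.94, SE 0.507, adjusted p = 3.93e-08), Tbx20 (3.31, SE 0.855, adjusted p = 0.00341), Tbx2 (2.18, SE 0.393, adjusted p = 0.000101) and Tbx15 (1.10, SE 0.331, adjusted p = 0.0106), 4 of 5 genes, beside 39.6% of all genes (21.7% higher and 18% lower). For all 4 the change was more positive under Activin A. The Tbx15 call was lost without Chiron replicate 1 of 120 h (0.85) or Activin A replicate 2 of 96 h (0.92), and the Tbx20 call without Chiron replicate 1 of 96 h (2.63). The Tbx15 call was also lost with DESeq2 (1.07) and both limma fits on FPKM (0.50 and 1.07), and the Tbx2 call with limma on log2(FPKM + 1) (0.37, adjusted p = 0.132). The wild-type Activin A libraries are the same in the genotype and the treatment comparisons. Definitive endoderm markers summed to 93.9 to 95 CPM under Chiron at 120 h, cardiomyocyte markers to 6.47 to 7.63 CPM with Myl7 and Nkx2-5 at the floor, and presomitic and somitic markers to 729 to 779 CPM, and their part in the treatment differences was not tested. Of the 12 cardiac genes around Tbx20, all tested at 120 h, 10 were higher under Activin A and 0 lower (median log2 fold change 2.58, or 2.22 with genes at the floor set at their bound, beside -0.01 over all genes), where 20.3% of all genes tested were called higher and 21.6% lower. Of 14 BMP pathway genes 8 were higher and 3 lower (0.71), and of 8 other T-box genes tested 4 were higher and 1 lower (0.65).

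**Figure D5:**
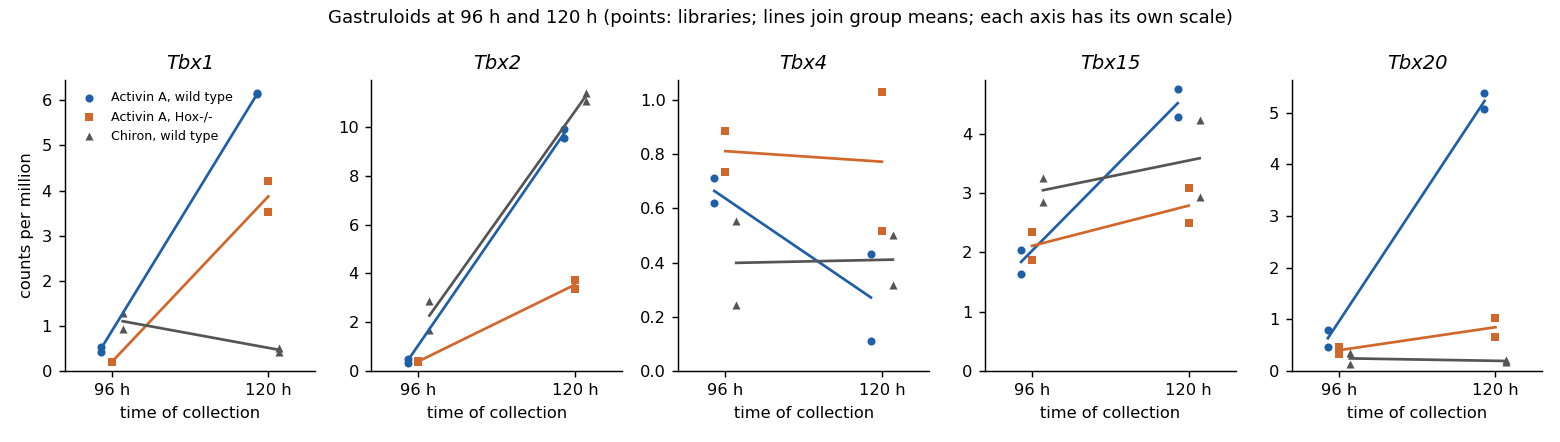
CPM (y axis, a separate scale per gene) at 96 h and 120 h (x axis) in wild-type Activin A, Hox-/- Activin A and wild-type Chiron gastruloids; points are libraries and lines join group means. Under Activin A, Tbx20 reaches 5.23 CPM in wild type but 0.845 CPM in Hox-/- and stands at 0.19 CPM under Chiron, while Tbx2 reaches 9.75 CPM under Activin A and 11.3 CPM under Chiron in wild type and 3.54 CPM in Hox-/-.

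The profiles of the 5 genes over the 10 groups were compared with each other as a description, with Pearson's r of log2(mean CPM + 1), and the points share libraries, depth and scaling. Tbx2 and Tbx15 were most alike (r = 0.79), followed by Tbx1 and Tbx15 (0.72) and Tbx1 and Tbx2 (0.69). Tbx4 and Tbx20 were at 0.50, and Tbx4 and its chromosomal neighbour Tbx2 were least alike (-0.15). Among the 13267 genes with at least 5 CPM in 1 group, the profiles nearest to Tbx1 were Hapln1 (0.983), Col9a1 (0.950) and Adcy5 (0.944). Those nearest to Tbx2 were Igfbp5 (0.983), Tmem129 (0.979) and Hey2 (0.978), those nearest to Tbx4 were Itgav (0.960), Wdr1 (0.958) and Abi1 (0.956), and those nearest to Tbx15 were Abca5 (0.983), Cmtm3 (0.978) and Gramd4 (0.978). Tbx20 had the least close matches, Emp2 (0.938), Tnnt1 (0.920) and Fndc3b (0.919). These genes were picked as the closest of 13267 over 10 group means, so high values come with the choice. Col9a1 and Adcy5 were highest in Hox-/- Activin A gastruloids at 120 h, Hey2 in wild-type ones, and Fndc3b in Hox-/- endoderm, each another group than that of its member. The other genes named were highest in the same group as their member.

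The nearest genes on the chromosome with at least 10 counts in a library on either side were read alongside. Gnb1l, next to Tbx1, ran from 7.08 to 13.9 CPM over the 10 groups, while Septin5 on its other side ran from 0.0374 CPM in Hox-/- mES cells to 3.27 CPM in wild-type Activin A gastruloids at 120 h, the group in which Tbx1 was also highest, and stood at 3.09 CPM in Hox-/- gastruloids of that time. Under Chiron at 120 h Septin5 stood at 2.56 CPM, while Tbx1 was at 0.464 CPM. Bcas3, next to Tbx2, ran from 19.2 to 56.5 CPM and was highest in mES cells, where Tbx2 was at the floor. Brip1, on the far side of Tbx4, stood at 16.8 CPM in endoderm of wild type against 16.6 CPM in that of Hox-/-, where Tbx4 stood at 2.07 and 6.02 CPM. Wars2, next to Tbx15, ran from 3.86 to 18 CPM, and M6pr-ps on its other side from 0.053 to 1.01 CPM, highest in Hox-/- Activin A gastruloids at 96 h. Dpy19l1, next to Tbx20, ran from 57.4 to 116 CPM, and Gm10180 on its other side from 0.421 to 3.61 CPM, with 3.21 CPM in wild-type Activin A gastruloids at both times, between which Tbx20 rose.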

How the data were processed

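Gene counts from poly(A)-selected, stranded-kit RNA-seq libraries were used, one whole-number count per Ensembl gene and library as deposited by the authors with no normalization. FPKM values deposited by the authors for the same genes gave symbols and positions and were used for levels between genes and 1 alternative test. Per the submitters' processing notes, cutadapt 1.16, STAR, Cufflinks 2.2.1 and mm10 were used; the counter and its strand setting are not given in the sources used here. Symbols were joined to counts by gene identifier, and positions were checked against GENCODE M21. CPM are counts over the library total, given as mean ± SD.

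Tests used edgeR 4.0.16 (R 4.3.3) with filterByExpr, TMM scaling, one coefficient per group and its quasi-likelihood test, fitted on each whole table (mES and endoderm alone, each gastruloid table whole, joint fits for differentiation), with Benjamini-Hochberg adjustment over all genes tested and a threshold of 0.05. SE is the log2 fold change over the square root of F. Folds against a group at the floor of 3 counts per library are lower bounds; intervals are exact Poisson and cover counting error only. The scripts were tested on simulated counts. Alternatives used limma 3.58.1 on log2(FPKM + 1) and log2(FPKM + 0.1) over genes with FPKM of at least 1 in 2 libraries, and DESeq2 1.42.0.

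The members and lists were chosen with earlier results of these data known. All 5 members are named; of each list, genes called in the Activin A genotype comparisons with the 4 smallest p, every T-box gene, nearest neighbours with at least 10 counts in a library, and the 3 most alike genes are named, and the names given with list counts were chosen after their values were seen. The set's own promoters were read from RefSeq (GRCm38.p6); 3 of 5 matched. The comparison of gastruloid with endoderm genotype differences, with its alternatives, was added after seeing the data. Some genes of the lists are not reported here by name.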

Additional observations from a re-analysis of the deposited data

Results flagged for a closer look

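These values were picked out because an effect differed between groups by a test of the difference itself. The change from 96 h to 120 h differed between Activin A and Chiron gastruloids of wild type for Tbx1 (log2 4.94), Tbx20 (3.31), Tbx2 (2.18) and Tbx15 (1.10). The change over the same interval differed between Hox-/- and wild-type Activin A gastruloids for Tbx20 (log2 -1.87) and Tbx15 (-0.87). DESeq2 called neither of these, and each call was also lost without some of the libraries. The Hox-/- difference in Activin A gastruloids at 120 h differed from that in endoderm cultures for Tbx2 (log2 -2.38), Tbx20 (-2.08), Tbx1 (-1.48) and Tbx15 (-1.06), in a comparison chosen after these values were seen. No group has more than 3 libraries, so no outlier test within groups was made. Some of the calls in all 3 comparisons were lost in alternatives. The effects of leaving out each library and of the other alternatives are given with the results.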

How the results depend on the processing

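Of the counts of genes or of the 5 members called, 353 stayed within 1.5 times their main value and 55 did not. Of the single-gene results, 778 kept their direction and side of the threshold, 66 lost and 16 gained a call, 1 moved and 18 reversed. The 1 that moved was the highest group of Tbx20, wild-type Activin A gastruloids at 120 h by CPM but wild-type mES cells by FPKM. The cause was not tested unless given. Genes called in mES cells came to 1099 with DESeq2 and to 387 and 372 with limma on log2(FPKM + 1) and log2(FPKM + 0.1), against 3168. For the genotypes at 96 h they came to 3647, 3048 and 2787 in the same order, against 6546. For Activin A against Chiron at 96 h limma called 7040 and 6670 genes, against 10655, and for genotype by time limma on log2(FPKM + 0.1) called 4264, against 6544. Of the members, no filter on low counts called 1 in mES cells and 1 for genotype by time. A minimum of 10 counts in every library, which leaves fewer members tested, called 1 for the genotypes at 120 h, 1 for Activin A against Chiron at 96 h and 0 at 120 h, 1 over time in wild type, 0 in Hox-/- and 0 under Chiron, 1 for genotype by time, 1 for treatment by time, 1 and 2 for differentiation in wild type and Hox-/-, and 1 for the gastruloid against endoderm difference. DESeq2 called 3 in endoderm and 0 for genotype by time, for which one fit over the 12 gastruloid libraries called 1. Limma, which tests only members past its FPKM filter, called 3 and 2 in endoderm, 1 for the genotypes at 120 h with 0.1 added, 1 and 1 for Activin A against Chiron at both times, 1 and 1 over time under Chiron, 1 and 0 for genotype by time and 1 and 2 for treatment by time. Limma on FPKM was not possible for the joint mES and endoderm fit and was not run for the gastruloid against endoderm difference. Leaving out each library gave 1477 to 3372 genes in mES cells and 2 to 4 members in endoderm, 2 to 4 for Activin A against Chiron at 96 h, 1 to 2 over time under Chiron and 0 to 2 for genotype by time; a lone library left in a group is assumed to vary like the others. Reversals touched values that were not called, not all of them near 0: Tbx4 in mES cells (-0.17 to 0.20 over left-out libraries, among them -0.12), Tbx2 at 96 h between genotypes (-0.33 to 0.35, among them 0.01), Tbx4 over time in Hox-/- (-0.67 to 0.30, among them 0.03), Tbx4 (-0.53 to 0.14), Tbx15 (-0.15 to 0.36) and Tbx20 (-0.91 to 0.34) over time under Chiron, and Tbx4 in the gastruloid against endoderm difference (-0.62 to 1.27, among them -0.53, -0.13 and -0.01, and -0.07 with total counts alone). With counts thinned to the smallest library, Tbx2 (0.87), Tbx15 (-0.15) and Tbx20 (0.05) reversed between genotypes at 96 h, and with limma on log2(FPKM + 1) Tbx1 reversed for genotype by time (-0.13). Same-number correlations of -0.24 to 0.30 do not settle whether replicate numbers pair the samples. Between groups of 2 libraries, both numbers give the same correlation by construction. With the replicate block, 3793 genes were called in mES cells, 6862 in endoderm and 8510 between genotypes at 120 h. Under that block 4 members were called in endoderm (without Tbx20) and 4 at 120 h (with Tbx15, lower). Few counts limit the precision in mES cells and in Activin A gastruloids at 96 h, where Tbx1, Tbx2 and Tbx4 had at most 20 counts per library; the 96 h libraries were deeper than those of 120 h.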
